A study of Mus musculus with 14 samples.

Results

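The Ifi200 or PYHIN family is a cluster of related mouse genes on chromosome 1, and 8 of its genes were followed here on arrays of muscle precursor cells at 3 ages: Mndal, Mnda, Ifi202b, Ifi203, Ifi204, Ifi205, Pyhin1 and Aim2. Every probe set annotated to one of them, alone or together with other genes, was taken, which gave 14 of the 45101 probe sets on the array. The platform annotation carries Mnda as Ifi211 and Pyhin1 as Ifi209, which RefSeq lists as synonyms, and all 8 genes matched. The family was chosen by the large rise of Mndal from 2 to 24 months in these same arrays. Values of the 3 probe sets annotated to Mndal are therefore a description with no test, in every comparison, since the comparisons share arrays.

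The arrays held RNA of skeletal muscle precursor cells from C57BL/6 mice, grouped as young at 2 months (5 arrays), middle-aged at 12 months (4 arrays) and aged at 24 months (5 arrays). The cells had been released from muscle fibres and sorted as CD45-, Ter119-, Sca-1-, CD29+ and Cxcr4+, a gate meant to enrich satellite cells, the stem cells of muscle. No array carried a treatment or an engineered allele in its labels, and the labels name neither a substrain nor a sex. Nor do they state that the arrays of a group were separate animals, so p-values measure only the spread between these samples, which may be technical.

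PYHIN proteins usually join a pyrin domain, which binds other pyrin domains, to a HIN domain, which binds DNA. Aim2 is the cytosolic DNA sensor that assembles an inflammasome, whereas Ifi202b has HIN domains and no pyrin domain and restrains Aim2. Many genes of the cluster are induced by interferons, and the products of Ifi204, Ifi203, Ifi205 and Mndal are mostly described as nuclear regulators of transcription, growth and differentiation. The genes are copies of one another to varying degrees, so short probes often match more than 1 of them.

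The copying is visible in the upstream sequences, which are shown because a short interferon-type motif recurs across the cluster. Genes holding it include some with probe sets that moved, alone or shared, and Ifi213, whose probe sets did not. Ifi206, Ifi214 and Ifi208 held it too but had no probe set, so any change in them is unknown. The 250 bases before the annotated transcript start were read from RefSeq (build GRCm38.p6), which held 12 of the 13 PYHIN genes looked up, Ifi204 being without an entry. Each sequence runs 5′ to 3′ along the gene's strand, with 1 of 2 annotated starts shown for Mndal and for Ifi203. Capitals mark matches, on either strand, to the core of the interferon-stimulated response element, spelled GAAANNGAA, or to the gamma-activated site, spelled TTCNNNGAA.
Mndal, chr1:173880188-173880437, minus strand: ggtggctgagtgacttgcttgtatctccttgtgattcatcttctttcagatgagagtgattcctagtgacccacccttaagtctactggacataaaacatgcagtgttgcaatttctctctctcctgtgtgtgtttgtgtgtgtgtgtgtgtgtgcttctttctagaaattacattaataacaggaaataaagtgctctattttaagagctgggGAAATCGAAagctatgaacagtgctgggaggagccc
Ifi203, chr1:173942493-173942742, minus strand: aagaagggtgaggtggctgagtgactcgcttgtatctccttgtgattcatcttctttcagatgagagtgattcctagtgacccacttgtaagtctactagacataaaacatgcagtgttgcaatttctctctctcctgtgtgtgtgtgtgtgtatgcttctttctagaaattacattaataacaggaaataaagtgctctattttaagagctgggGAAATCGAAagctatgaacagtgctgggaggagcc
Mnda (Ifi211), chr1:173913047-173913296, minus strand: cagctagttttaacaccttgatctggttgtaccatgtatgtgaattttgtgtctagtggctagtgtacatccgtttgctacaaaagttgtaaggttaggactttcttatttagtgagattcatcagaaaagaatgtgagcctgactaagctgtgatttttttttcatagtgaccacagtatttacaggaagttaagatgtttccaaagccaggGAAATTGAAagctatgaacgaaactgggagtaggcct
Ifi205, chr1:174031756-174032005, minus strand: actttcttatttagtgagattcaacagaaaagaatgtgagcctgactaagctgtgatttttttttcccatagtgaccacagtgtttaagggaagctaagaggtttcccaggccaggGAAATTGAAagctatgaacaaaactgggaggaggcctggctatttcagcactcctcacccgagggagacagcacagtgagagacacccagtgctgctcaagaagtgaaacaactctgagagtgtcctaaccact
Pyhin1 (Ifi209), chr1:173630609-173630858, plus strand: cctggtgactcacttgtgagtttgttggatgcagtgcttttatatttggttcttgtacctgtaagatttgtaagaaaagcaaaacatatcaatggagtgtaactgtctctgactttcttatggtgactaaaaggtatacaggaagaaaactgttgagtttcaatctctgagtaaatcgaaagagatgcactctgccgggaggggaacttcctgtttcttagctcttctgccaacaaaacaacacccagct
Ifi202b, chr1:173982845-173983094, minus strand: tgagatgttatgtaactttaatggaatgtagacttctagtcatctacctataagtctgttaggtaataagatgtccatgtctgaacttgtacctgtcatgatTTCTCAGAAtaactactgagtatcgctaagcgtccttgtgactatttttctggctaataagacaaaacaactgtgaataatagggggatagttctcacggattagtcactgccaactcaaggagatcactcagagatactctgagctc
Aim2, chr1:173420354-173420603, plus strand: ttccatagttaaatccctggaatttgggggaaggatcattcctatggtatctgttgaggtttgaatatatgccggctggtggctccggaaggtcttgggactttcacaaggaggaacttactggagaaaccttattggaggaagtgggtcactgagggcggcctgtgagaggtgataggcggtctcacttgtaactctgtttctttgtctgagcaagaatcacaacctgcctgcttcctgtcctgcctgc

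Of the 12 genes with an entry, 9 held a match to GAAANNGAA in this window, against 7.13% of 32841 promoter windows of the same length. The family was counted by gene, at any annotated start, and the background by window. Several family windows are near copies of one another, so the matches are not separate occurrences. The match read GAAATCGAA in 7 of the 9 genes, among them Mndal and Ifi203 at the starts shown. This exact run of letters occurred in only 23 of all the windows. In Mnda and Ifi205 it read GAAATTGAA, found in 93 windows. The last base of the match lay 28 bases before the start in Mndal, 27 in Ifi203, 29 in Mnda and 126 in Ifi205. At the other annotated starts, the Ifi203 window held no match and the Mndal window held 1 with other letters. The exact GAAATCGAA also stood in the window of Ifi213, a PYHIN gene outside the 8 whose probe sets were dim on all arrays. It stood as well in those of Ifi206, Ifi214 and Ifi208, which had no probe set. The windows of Aim2, Pyhin1 and Ifi202b held no match to GAAANNGAA, and that of Ifi202b held the 1 match to TTCNNNGAA in the family, a motif found in 7.02% of all windows. Aligned end to end, the Mndal and Ifi203 windows shown were identical at 89.3% of positions, against 44% to 48.6% for the pairs with the other starts, and those of Mnda and Ifi207, a family gene outside the 8, at 85% of positions. The Pyhin1 window was 94.4% identical to that of Ifi214, which does hold the match. A match of letters is a description of the sequence and no evidence that a factor binds there.

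A probe set was counted as dim on an array where its log2 value was under the array's 40th percentile, a level that ran from 3.79 to 3.96. Of the 14 member probe sets, 6 were dim on all 14 arrays. These were the single probe set of Aim2, both of Ifi202b, both of Pyhin1 and 1 of the 4 of Ifi203. The other 8 lay above it on at least 4 arrays and entered the fit of 24505 probe sets. Since several of them cleared it only through older arrays (Ifi204 on 4 arrays and the probe set shared by Mndal, Mnda, Ifi205 and Ifi204 on 9, none of them young), passing was itself tied to age. RNA quality moved with age as well: the 3' minus 5' log2 difference of control probe sets, averaged over Gapdh and Actb, ran from 3.81 to 5.05 on young, 3.57 to 4.16 on middle-aged and 2.89 to 4.16 on aged arrays. A fit with this measure as a covariate is given for some named genes only. For the cell type markers and for list members not named, it is not stated whether their calls held. Over all probe sets tested, calls from young to aged went from 555 to 362 higher and from 219 to 274 lower with it.

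**Figure D1:**
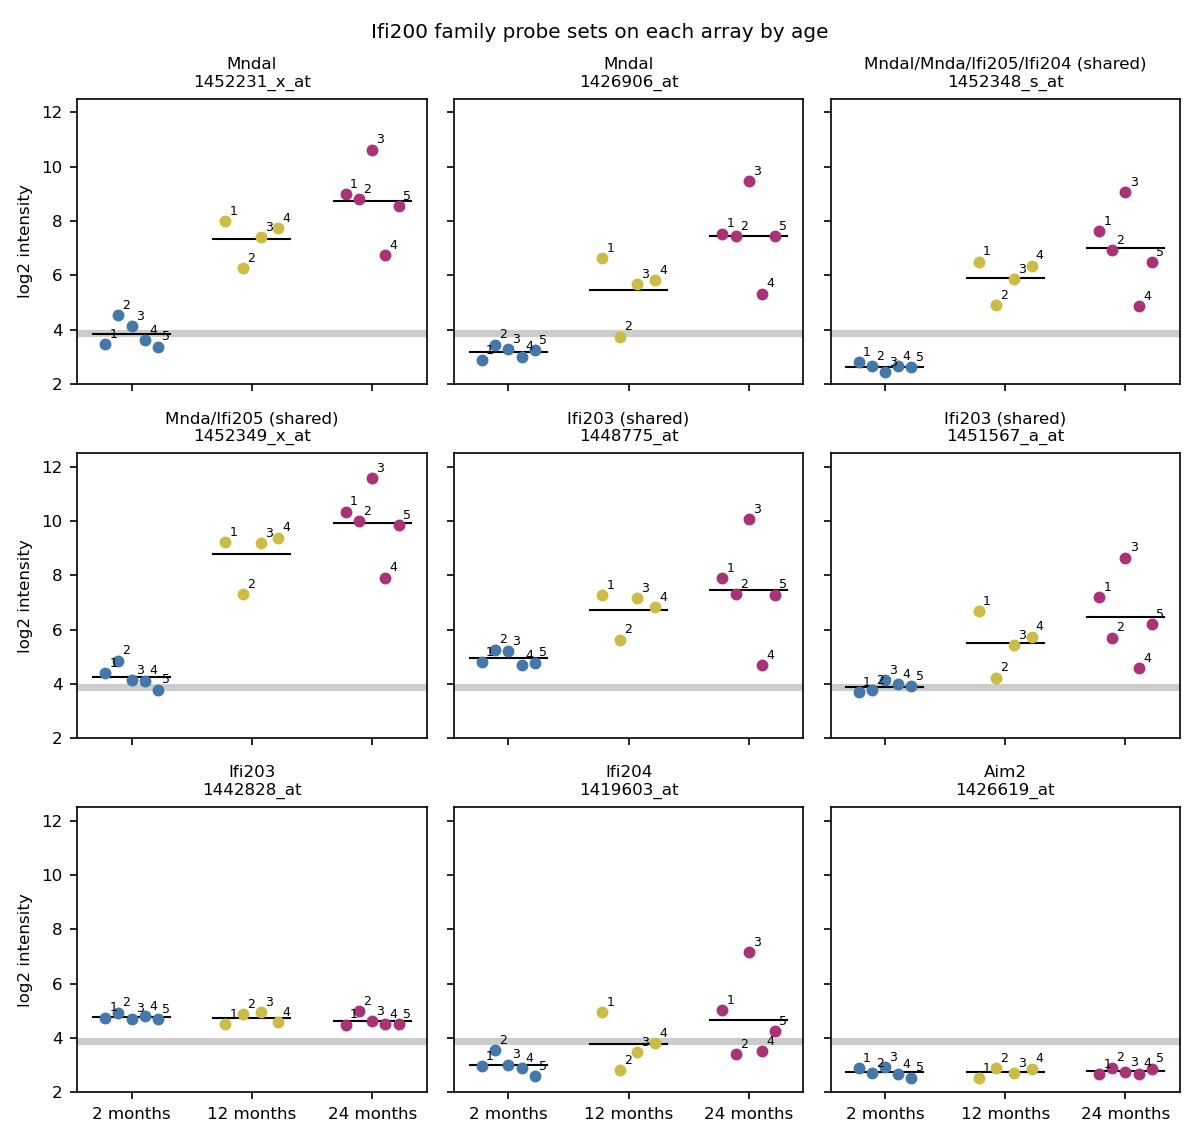
Log2 intensity (y axis) of 9 Ifi200 family probe sets on each of the 14 arrays, grouped by age (x axis), with array numbers beside the points, bars at group means and a grey band over the 40th percentiles of the arrays (3.79 to 3.96). In the upper row and in the Mnda/Ifi205 panel every middle-aged and aged array lies above every young one, and aged array 3 is highest throughout that row, while Aim2 stays below the band at all ages.

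Mndal, which encodes a HIN protein of the nucleus named for its likeness to the myeloid nuclear differentiation antigen, went from a dim signal at 2 months to a clear one at 12 and a higher mean at 24 months. Its brighter probe set, 1452231_x_at, read 3.46, 4.55, 4.15, 3.62 and 3.38 on young arrays 1 to 5. The middle-aged arrays 1 to 4 read 7.99, 6.26, 7.42 and 7.74, and the aged arrays 1 to 5 read 8.99, 8.81, 10.63, 6.74 and 8.56. No older array overlapped the young ones, whereas the middle-aged and aged arrays overlapped, with aged array 4 below 3 of the 4 middle-aged arrays. The group means were 3.83 ± 0.50 (SD, n = 5), 7.35 ± 0.76 (n = 4) and 8.75 ± 1.39 (n = 5). The aged mean exceeded the young by 4.91 ± 0.54 (SE of the fit), a 30.1-fold difference, and the middle-aged mean exceeded it by 3.52 ± 0.57 or 11.5-fold. These folds are set partly against background, since 3 of the 5 young values were dim. The x suffix of this probe set also marks probes that can match related genes. How much of its signal came from Mndal itself is therefore not settled. From middle-aged to aged the difference was 1.39 ± 0.57. Without aged array 3 it was 0.92 and without aged array 4 it was 1.90, so single arrays moved the later step more than the earlier one, which ran from 3.31 to 3.88 over the arrays left out. In RNA from bulk cells, a change in the number of cells that hold a transcript cannot be told from a change of its amount per cell.

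The second Mndal probe set, 1426906_at, which is annotated to Mndal only and carries no suffix for shared sequence, showed the same order. Young arrays read 2.89, 3.46, 3.30, 3.01 and 3.25, all below their 40th percentile. Middle-aged arrays read 6.65, 3.75, 5.68 and 5.83, and aged arrays 7.54, 7.46, 9.48, 5.33 and 7.44. Middle-aged array 2 lay below its own 40th percentile as well, yet above every young array. Group means were 3.18 ± 0.23, 5.48 ± 1.23 and 7.45 ± 1.47. The aged mean was 4.27 ± 0.60 above the young one. Counted from the 40th percentile in place of the dim young values, the aged mean was at least 11.8-fold higher and the middle-aged mean at least 3.02-fold.

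The third, 1452348_s_at, is annotated to Mndal, Mnda, Ifi205 and Ifi204 at once. It read 2.45 to 2.80 on young arrays, all dim, then 6.51, 4.90, 5.85 and 6.36 on middle-aged and 7.64, 6.92, 9.06, 4.87 and 6.48 on aged arrays. Every older array lay above every young one here too. The aged mean was at least 8.63-fold and the middle-aged mean at least 4.06-fold above the 40th percentile of the young arrays. Which of the 4 genes supplied the signal cannot be told apart.

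Mnda and Ifi205, a pair of HIN genes described as close copies and represented together by 1452349_x_at, showed the largest change of the family. The young arrays read 4.39, 4.85, 4.15, 4.13 and 3.79. The middle-aged arrays read 9.21, 7.31, 9.19 and 9.39, and the aged arrays 10.34, 9.98, 11.58, 7.91 and 9.85. All older arrays stood above all young ones. Means were 4.26 ± 0.39, 8.78 ± 0.98 and 9.93 ± 1.32. The pair rose by 5.67 ± 0.54 from young to aged, or 51.0-fold (limma, adjusted p = 7.01e-05), and by 4.51 ± 0.57 from young to middle-aged, or 22.8-fold (adjusted p = 0.00115). The later difference, 1.16 ± 0.57, did not pass (adjusted p = 0.581). The x suffix marks probes that can match related genes, and over the 14 arrays this probe set tracked Mndal's brighter one with r = 0.99 (r = 0.96 after each age mean was taken off), so the values are no independent sign of a change in Mnda or Ifi205. The family was chosen by Mndal's rise in these arrays, so the p-values of this probe set carry that choice.

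Ifi203, a HIN gene close to Mndal in sequence and position, gave 4 probe sets that differed among themselves. Of those shared with other loci, 2 were higher on older arrays. The first, 1451567_a_at, is annotated to Ifi203, a pseudogene of it and 2 unnamed loci, and read 3.70, 3.76, 4.13, 3.98 and 3.91 on young arrays. It read 6.69, 4.23, 5.44 and 5.74 on middle-aged and 7.20, 5.71, 8.65, 4.58 and 6.19 on aged arrays, with no overlap between young and older arrays. It rose by 2.57 ± 0.59 from young to aged, or 5.94-fold (adjusted p = 0.0247). Leaving out aged array 1 or any young array but the fifth ended this call (adjusted p = 0.0511 to 0.064), and so did the RNA-quality covariate (2.52 ± 0.77, adjusted p = 0.0983). The change from young to middle-aged was 1.63 ± 0.63 and did not pass (adjusted p = 0.226).

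The other, 1448775_at, is annotated to Ifi203, its pseudogene and 1 unnamed locus. It read 4.80, 5.26, 5.20, 4.68 and 4.79 on young, 7.28, 5.63, 7.17 and 6.82 on middle-aged and 7.88, 7.30, 10.08, 4.68 and 7.29 on aged arrays. Aged array 4 thus stood at the young level, while the other aged arrays stood well above it. The aged mean was 2.50 ± 0.67 above the young and missed the threshold (adjusted p = 0.0593). Without aged array 4 the difference was 3.19 and passed (adjusted p = 0.00277). The middle-aged arrays did not overlap the young ones, with a difference of 1.78 ± 0.72 (adjusted p = 0.25).

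The remaining Ifi203 probe sets showed no change of this size. The only one annotated to Ifi203 by itself, 1442828_at, had group means of 4.78 ± 0.10, 4.73 ± 0.21 and 4.62 ± 0.21, all arrays above the 40th percentile and all groups overlapping. Its aged minus young difference was -0.16 ± 0.14 (adjusted p = 0.642). The third shared probe set, 1425008_a_at, was dim on every array, with means of 2.93, 3.09 and 3.24. The probe sets may read different transcripts or different copies of the gene, which the annotation does not settle.

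Ifi204, the p204 protein that is described as a mouse counterpart of human IFI16, was mostly dim. Its own probe set, 1419603_at, read 2.97, 3.56, 3.03, 2.90 and 2.60 on young, 4.95, 2.82, 3.48 and 3.81 on middle-aged and 5.04, 3.42, 7.16, 3.53 and 4.27 on aged arrays. Aged array 3 stood far above the rest, and 2 of the 5 aged arrays lay within the young range. All 5 young values were dim, and the probe set entered the fit only through older arrays, so no p is given. Counted from the 40th percentile, the aged mean was at least 1.74-fold higher. The measured difference was 1.67, and 1.05 without aged array 3.

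Aim2, Ifi202b and Pyhin1 gave no signal above the dim mark at any age. Aim2 had means of 2.75 ± 0.16, 2.75 ± 0.17 and 2.78 ± 0.11, with single arrays between 2.53 and 2.94. Of the 2 probe sets of Ifi202b, 1421551_s_at had means of 3.10, 3.10 and 3.14 and 1457666_s_at 2.92, 2.77 and 2.91. Pyhin1, named after both domains and described mainly in lymphoid cells, had means of 3.55, 3.71 and 3.56 at 1435330_at and of 2.78, 2.79 and 2.76 at 1435331_at. The aged minus young differences of these 5 probe sets lay between -0.02 and 0.04. A dim signal does not show that a transcript is absent, since a weak probe set gives the same reading.

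**Figure D2:**
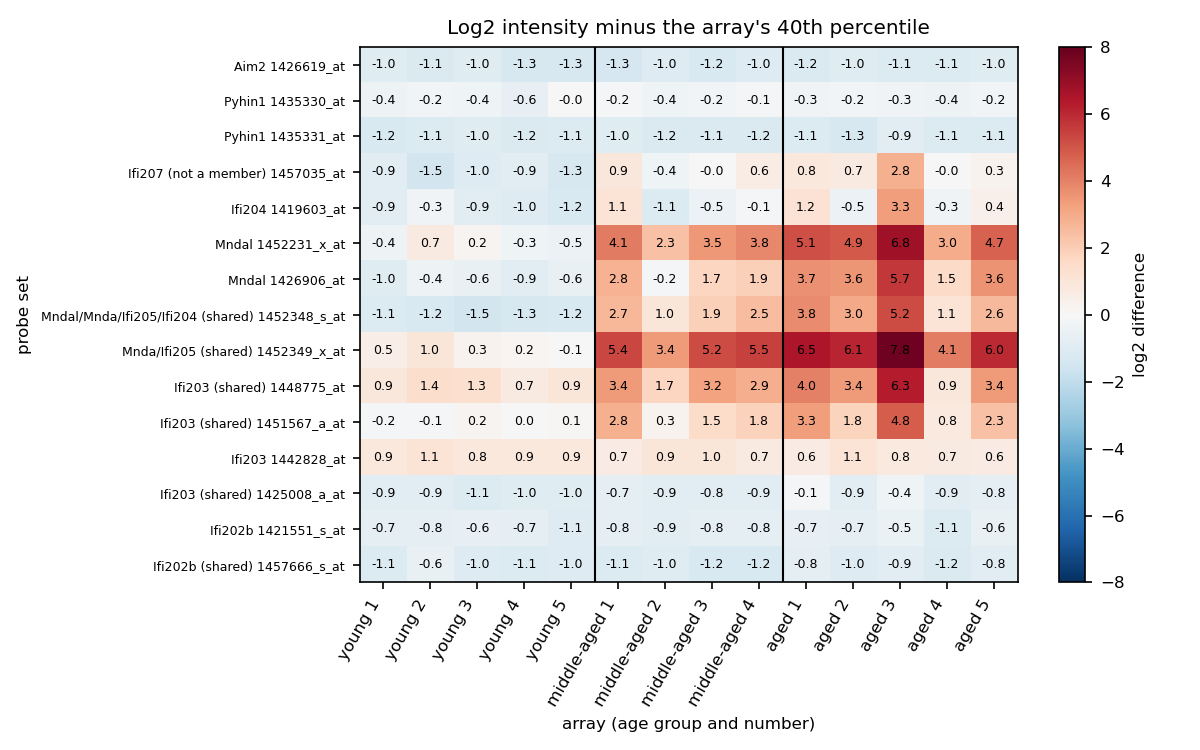
Log2 intensity minus the array's own 40th percentile (colour and printed value) for the 14 member probe sets and that of Ifi207 (rows), on the 14 arrays (columns), with vertical lines between age groups. The probe sets of Mndal and Mnda/Ifi205 lie near or below 0 on young arrays and above it on nearly all older ones, and 2 of the 3 shared Ifi203 probe sets are higher on most older arrays, while Aim2, Pyhin1, Ifi202b and the last shared Ifi203 probe set stay below 0 throughout.

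In all, of the 11 member probe sets without Mndal, 5 had a value in the fit, Ifi204 only through older arrays, and from young to aged 2 of them rose and 0 fell, against 2.26% of all probe sets tested that were called higher and 0.894% that were called lower. From young to middle-aged, 1 rose and 0 fell, against 1.19% higher and 0.698% lower. From middle-aged to aged, 0 rose and 0 fell. In that comparison 0% of all 24505 probe sets were called in limma in either direction, with 2153 at an unadjusted p under 0.05. Over the 11, dim ones included, the median aged minus young difference was 0.04, beside -0.04 over all 35877 annotated probe sets. With no overlap between the groups, 2 of the 11 were higher on aged than on young arrays, against 2.07% of all annotated probe sets. In the same direction, 4 of the 11 were separate on middle-aged against young arrays, beside 2.67%. These few probe sets share target sequence and are not independent of each other. Those called also tracked Mndal, whose rise chose the family, so the counts carry that choice and are no separate support for a rise.

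The call of 1452349_x_at held with each single array left out, with adjusted p from 2.04e-05 to 0.000489 for aged against young and from 0.000389 to 0.00728 for middle-aged against young. As this probe set tracked Mndal, for whose rise the family was chosen, these values describe stability and are no independent test.

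The genes annotated to the probe sets that were high on older arrays lie mostly next to each other. A shared probe set is counted here at each of its genes. In RefSeq (GRCm38.p6), the cluster runs from Aim2 through Ifi206, Ifi214, Ifi213, Ifi209 (Pyhin1) and Ifi208 to Ifi207, Ifi204, a pseudogene of Ifi203, Mndal, Ifi211 (Mnda), Ifi203, Ifi202b and Ifi205. On the Aim2 side, Ifi206, Ifi214 and Ifi208 had no probe set, and the probe sets of Aim2, Ifi213 and Pyhin1 were dim on all arrays. From Ifi207 onward each gene with a probe set except Ifi202b had at least 1, alone or shared, whose mean was higher at 24 months by 1.67 or more on the log2 scale. Only Ifi207, Ifi204 and Mndal had such a probe set annotated to them alone. The pseudogene, Mnda and Ifi205 had shared ones only, and that of Ifi203 alone changed by -0.16. The run of genes up to Ifi205 thus rests in part on the same shared probe sets.

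**Figure D3:**
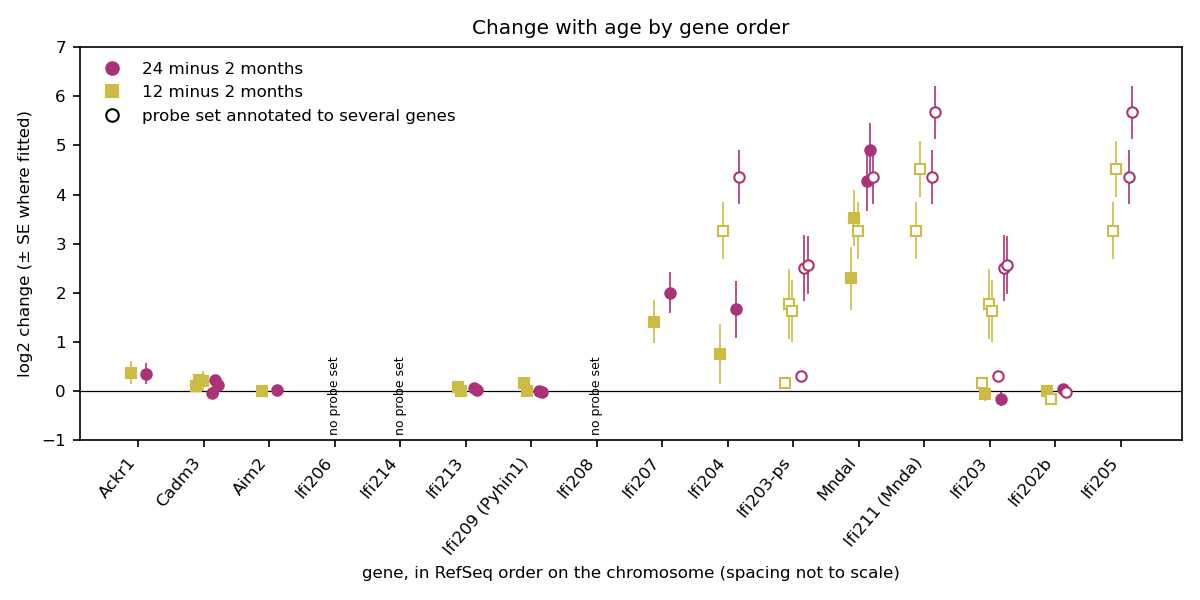
Log2 change from 2 to 24 months (circles) and from 2 to 12 months (squares), with SE where the probe set was fitted, for PYHIN genes and the flanking Ackr1 and Cadm3 in RefSeq order (x axis, not to scale), with open symbols for probe sets annotated to several genes and drawn at each of them. Changes near 0 on the left give way to changes of 1.67 to 5.67 from Ifi207 to Ifi205 at 24 months, apart from Ifi202b and part of the Ifi203 probe sets.

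Ifi207, a PYHIN gene outside the 8, has a probe set annotated to it alone, 1457035_at. It read 3.00, 2.41, 2.86, 3.01 and 2.59 on young, 4.74, 3.56, 3.92 and 4.53 on middle-aged and 4.70, 4.64, 6.64, 3.75 and 4.13 on aged arrays. The older arrays lay above all young ones, as for Mndal. It was dim on all 5 young arrays and entered the fit only through older ones, so no p is given. The aged mean was 2.00 above the young, at least 1.85-fold when counted from the 40th percentile. Both probe sets of Ifi213, the other PYHIN gene outside the 8 with any, were dim, with aged means of 3.37 and 2.61. Outside the cluster, the nearest flanking genes with probe sets, Cadm3 and Ackr1, named here after their values were seen, had aged minus young differences of -0.04 to 0.36.

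The family's probe sets ranked the arrays of one age in nearly the same order. Among aged arrays, array 3 was the highest and array 4 the lowest for both Mndal probe sets, for the one shared by 4 genes, for Mnda/Ifi205, for Ifi207 and for the higher Ifi203 probe sets 1448775_at and 1451567_a_at. Among middle-aged arrays, array 2 was the lowest for each of these. After each age mean was taken off, correlation with Mndal's brighter probe set over the 14 arrays was 0.95 for 1426906_at, 0.92 for 1452348_s_at, 0.96 for 1448775_at, 0.90 for 1451567_a_at, 0.84 for Ifi204 and 0.82 for Ifi207. Among probe sets that were dim or did not rise, it was 0.69 and 0.41 for those of Ifi202b, 0.66 and 0.33 for those of Pyhin1, 0.55 for 1425008_a_at, 0.01 for the Ifi203 probe set annotated alone and -0.05 for Aim2. Some dim probe sets thus followed the order of the arrays within ages without a change in mean. These values describe 14 arrays that share their processing, and several of the probe sets share target sequence.

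Of 13575 other genes, those whose values were most like Mndal's over the 14 arrays were Gbp6, an interferon-inducible GTPase (r = 0.97), the alarmin cytokine Il33 (r = 0.95), the complement protease C1ra (r = 0.95), the signalling adaptor Eps8 (r = 0.94) and the surface peptidase Dpp4 (r = 0.94). All 5 had higher means on middle-aged and aged arrays: Gbp6 had means of 7.03, 8.61 and 8.94 and Il33 of 6.16, 9.41 and 10.09. After age means were taken off, r was 0.83 for Gbp6, 0.65 for Il33, 0.60 for C1ra and 0.67 for Dpp4. With age means taken off, the most alike were the prostacyclin receptor Ptgir (r = 0.93), Eps8 (0.88), Hps3, which acts in the making of lysosome-related organelles (0.86), the growth factor receptor Pdgfra (0.86) and the kinase Cdkl2 (0.84). Eps8 stood in both lists, although 4 of its 5 young values were dim.

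Interferon response genes were taken as a list because the family is interferon-inducible. Of 26 measured, 11 rose and 0 fell from young to aged, with a median difference of 0.89, beside 2.26% called higher, 0.894% called lower and a median of -0.05 over all probe sets tested. Iigp1, an interferon-inducible GTPase of immunity, rose 5.23-fold (2.39 ± 0.45, adjusted p = 0.00868), Trim30a, a ubiquitin ligase of the TRIM family, 3.26-fold (1.70 ± 0.31, 0.00732), the guanylate-binding protein Gbp2 2.81-fold (1.49 ± 0.28, 0.00819) and Ifitm1, an antiviral membrane protein, 2.55-fold (1.35 ± 0.25, 0.00692). From young to middle-aged 2 rose, Gbp2 and the related membrane protein gene Ifitm3, with a median of 0.48, and from middle-aged to aged none of the 26 rose or fell. The list mean ran from 6.32 to 6.75 on young, 7.01 to 7.32 on middle-aged and 7.14 to 8.06 on aged arrays, with aged array 3 highest and aged array 4 lowest, as for Mndal. Its correlation with Mndal was 0.93 over the 14 arrays and 0.72 after age means were taken off. With the RNA-quality covariate the calls of Gbp2 (adjusted p = 0.0683) and Iigp1 (0.0518) ended. Calls of list members not named are not given with it.

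Lists of sensing and signalling genes were counted against the same shares of all probe sets tested, 2.26% higher and 0.894% lower. Of 9 measured inflammasome genes, 2 rose from young to aged with a median of 0.28, while Casp1, the caspase that Aim2 inflammasomes activate, was dim. They were Casp4, the mouse caspase that senses bacterial lipopolysaccharide in the cytosol (2.26-fold, 1.17 ± 0.20, adjusted p = 0.0046), and Il18, a cytokine cut to its active form by inflammasome caspases (1.62-fold, 0.70 ± 0.17, 0.0396). Casp4 also rose from young to middle-aged (2.01-fold, adjusted p = 0.0276). Of 18 genes of cytosolic DNA and RNA sensing, 1 rose, the interferon regulatory factor Irf7 (1.73-fold, 0.79 ± 0.19, 0.0325), with a median of 0.09. Of 15 genes of interferon receptors and their signalling, 1 rose, Socs3, a feedback inhibitor of cytokine receptors (1.93-fold, 0.95 ± 0.21, 0.0203), and 1 fell, the receptor kinase Tyk2 (1.56-fold, -0.64 ± 0.16, 0.0458), with a median of 0.05. A count of 1 in lists of this length is near those shares and no result about the list. Leaving out single arrays ended some of these calls. That of Tyk2 ended for 12 of the 14 arrays, all but middle-aged 2 and aged 4, and that of Il18 for 8, young 1 to 4, middle-aged 4 and aged 1, 3 and 5. Irf7's ended for 6, young 1, 2, 3 and 5 and aged 1 and 3, and Socs3's for 4, young 1, 3 and 4 and aged 2. With the RNA-quality covariate the calls of Casp4 (adjusted p = 0.059), Il18 (0.195), Irf7 (0.0688), Socs3 (0.126) and Tyk2 (0.109) ended too. Adjusted p in this paragraph are limma's over all probe sets tested.

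**Figure D4:**
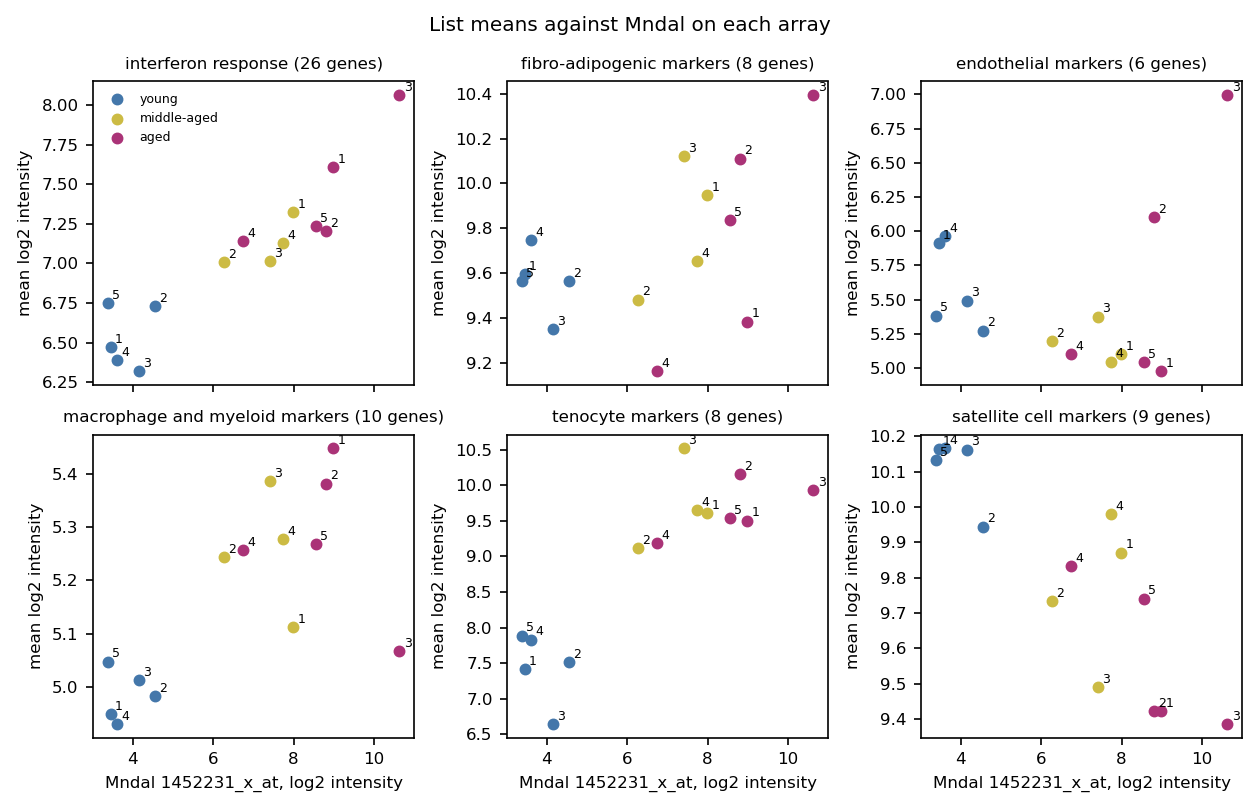
Mean log2 intensity of 6 gene lists (y axes) against the log2 intensity of Mndal probe set 1452231_x_at (x axis) on each of the 14 arrays, coloured by age, with array numbers. Interferon response genes and tenocyte markers are higher on all older arrays and satellite cell markers lower on most, and aged array 3 is the highest point for the interferon, fibro-adipogenic and endothelial lists.

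Markers of other cells moved with the arrays' Mndal values in part. Satellite cell markers, all 9 listed being measured, had list means of 9.94 to 10.17 on young, 9.49 to 9.98 on middle-aged and 9.39 to 9.83 on aged arrays, with 0 rising and 2 falling from young to aged. Pax7, the factor that defines satellite cells, had means of 9.52, 9.34 and 9.02. Tenocyte markers, 8 of 8, ran from 6.64 to 7.89, from 9.12 to 10.52 and from 9.18 to 10.16, with no overlap between young and older arrays, and 6 rose. Fibro-adipogenic markers, 8 of 9, ran from 9.35 to 9.75, 9.48 to 10.12 and 9.16 to 10.39, with aged array 3 highest and aged array 4 lowest, with a correlation of 0.69 with Mndal after age means were taken off. Endothelial markers, 6 of 9 with Pecam1, Tie1 and Emcn dim, read 6.99 on aged array 3 and 6.10 on aged array 2 but 4.98 to 5.10 on the other aged arrays. On middle-aged arrays they ran from 5.05 to 5.38, against 5.27 to 5.96 on young ones, where Mndal was lower. Pericyte and smooth muscle markers, 8 of 8, ran from 6.49 to 6.98, 6.94 to 7.85 and 7.03 to 7.99, with every aged array above every young one and a median difference of 1.03 from young to aged. The 1 of them that rose was Pdgfrb, a growth factor receptor of mural and other mesenchymal cells (6.81-fold, 2.77 ± 0.32, limma adjusted p = 0.000325, and 6.66-fold at 12 months, 0.000922). Notch3 (-0.70), Myh11 (-0.27) and Acta2 (-0.24) of the same list had lower aged than young means and were not called. Macrophage and myeloid markers, 10 of the 14 names listed, ran from 4.93 to 5.05, 5.11 to 5.39 and 5.07 to 5.45, so that young and older arrays did not overlap, and aged array 3, the highest for Mndal, was the lowest of the aged arrays. Their median aged minus young difference was only 0.09. The largest differences were those of Lyz2 (1.61, not called) and Cd14 (1.33), while Tyrobp (-0.26), Laptm5 (-0.22), Fcgr1 (-0.09) and Cd74 (-0.03) were lower. Of the myeloid markers, 1 rose from young to aged, Cd14, a receptor for lipopolysaccharide (2.52-fold, adjusted p = 0.00852), and of the fibro-adipogenic markers 1, the matrix proteoglycan Dcn (2.41-fold, adjusted p = 0.00106). The fibro-adipogenic markers Col3a1 (-0.88), Col1a1 (-0.52) and Dpt (-0.46) had lower aged than young means and were not called. Pdgfrb, Cd14 and Dcn are named after their values were seen. The counts of markers called from young to aged stand beside 2.26% higher and 0.894% lower of all probe sets tested. A count of 1 in lists this short is no result about the list. Ptprc, which encodes CD45 and defines blood-derived cells, was dim at both of its probe sets on all 14 arrays. Of 13 lymphoid names, 5 had a measured gene, with means of 4.61 to 4.81, 4.59 to 5.01 and 4.38 to 4.71, and of 7 neutrophil markers, 5, with 3.82 to 5.92, 4.36 to 5.53 and 5.35 to 5.87. Apart from these values, the part of other cells in the Mndal signal was not tested.

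With the RNA-quality covariate the Mndal difference between aged and young was 4.78 ± 0.70 and that of Mnda/Ifi205 5.74 ± 0.70 (adjusted p = 0.00146). Arrays were also cut into a pair of sets by the sign of a score, which gives a pair whether or not the arrays form groups. The score was the first principal component of the fitted probe sets after age means were taken off (31.3% of that variance). Aged arrays 3 and 4, the highest and lowest for Mndal, were in the same set, and with the set as a term the Mndal difference was 4.88 ± 0.55.

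Nnt, a mitochondrial transhydrogenase that is deleted in part in the C57BL/6J substrain, was read as a sign of genetic background, because PYHIN genes differ between mouse strains. At 1456573_x_at it read 6.80, 8.18, 7.49, 6.76 and 8.0 on young, 7.79, 6.62, 7.78 and 7.82 on middle-aged and 4.98, 6.64, 6.30, 5.32 and 6.37 on aged arrays. Aged values were below all young ones, while the middle-aged arrays, where Mndal was already high, overlapped the young. It fell by 1.52 ± 0.37 from young to aged (adjusted p = 0.0364), a call that ended when young array 2, 3 or 5, or aged 1 or 4, was left out (adjusted p = 0.082 to 0.0876). It also ended with array weights, no dim filter, the replicate block or a fit of the 2 groups alone (adjusted p = 0.0535 to 0.075). The second measured Nnt probe set, 1416105_at, had means of 6.09, 5.88 and 4.80, with every aged array below every young one. Its aged minus young difference was -1.28 ± 0.265 and was called (limma, adjusted p = 0.0137). Of 4 measured genes known to differ between C57BL/6 substrains, Nnt was the 1 that fell and 0 rose, beside 0.894% lower and 2.26% higher of all probe sets tested. The list median was -0.44, beside -0.05 over all probe sets tested. A count of 1 in so short a list is no result about the list. Whether the age groups differed in substrain was not tested.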

How the data were processed

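Per the labels' protocols, total RNA was extracted with Trizol from sorted cells, labelled with a 3'IVT kit and hybridized to mouse arrays of Affymetrix. RMA was named in the submitters' processing notes, with no version, and the sources used here name no genome build. The deposited intensity values are linear, with array medians of 19.0 to 21.2. The log2 of each value was taken with no further normalization. Of 45101 probe sets, 35877 had an annotated gene and were no controls, 932 of them several genes, and 24505 lay above the 40th percentile of their array on at least 4 of the 14 arrays. These were fitted in limma 3.58.1 (R 4.3.3) with age as the only factor, two-sided moderated statistics and p-values adjusted over all of them (Benjamini-Hochberg), and called at an adjusted p under 0.05. The script was tested on simulated data.

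The members and lists were chosen with earlier results of these data known. Named were all member probe sets, up to 4 called genes per pathway list by smallest p, Nnt, Pax7 and Ptprc, and the 5 genes most like Mndal by each of 2 correlations. A listed gene was represented by its tested probe set of highest mean that is annotated to it alone. Arrays have no counting depth, and their number limits the precision. No array duplicated another: the highest correlation between any pair was 0.989.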

Additional observations from a re-analysis of the deposited data

Results flagged for a closer look

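Within each age group, the highest and the lowest array of every member probe set were set against the rest by the gap to the nearest array as a share of the group's range. Of 42 such groups, 4 passed the 95% limit, where chance alone would pass about 5%. Mnda/Ifi205 probe set 1452349_x_at read 7.31 on middle-aged array 2, against 9.19 on the next lowest. Ifi203 probe set 1442828_at read 4.98 on aged array 2, against 4.61 on the next highest. The others were both of Ifi202b in the dim range: 1421551_s_at read 2.71 on aged array 4 (next 3.20) and 1457666_s_at read 3.26 on young array 2 (next 2.87).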

How the results depend on the processing

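Settings were a dim filter dropped or tightened, 1 probe set per gene, quantile normalization, median centring, an intensity trend, array weights, the 3' minus 5' covariate, the replicate block, the array set as a term, only the groups compared, and each array left out. The Mndal difference between aged and young stayed between 4.44 (without aged array 3) and 5.42 (without aged array 4). Of the members without Mndal, 2 probe sets were called in aged against young. It was 1 with the 3' minus 5' covariate and 0 with a filter on all 14 arrays or 1 probe set per gene, which leave out the dim young or jointly annotated probe sets by construction, and 1 to 3 with an array left out. In middle-aged against young the count of 1 became 0 under those same 2 settings and 3 with only the groups compared, and was 1 with each array left out. In aged against middle-aged it was 0 throughout. The 1 reversed value was the Ifi203 probe set 1442828_at in middle-aged against young, reported as -0.05, which ranged from -0.12 without middle-aged array 3 to 0.025 without middle-aged array 1 (adjusted p = 0.958). Counts over all probe sets differed most in middle-aged against young, from 462 to 1530 with array weights, 980 with the 3' minus 5' covariate, 936 with the array set, 794 with only the groups compared, 182 with the replicate block and 156 without middle-aged array 3. In aged against young, 774 became 1378 with the array set as a term and 499 to 799 with an array left out. The cause was not tested. Same-numbered arrays correlated at -0.47 to 0.30 in their deviations (5 of 13 pairs over 0.1), so the numbers did not pair the arrays. With the replicate block the counts of members called stayed at 2, 1 and 0, and the Mndal difference at 4.91.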
